A study of Mus musculus with 2 samples.

Results

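The transcripts of genes for DNA replication and DNA repair were examined in RNA recovered with the heterochromatin protein HP1 alpha. Members were chosen by gene symbol alone, with a fixed set of name stems of replication and repair genes (such as Mcm, Pol, Rad, Top and Parp, with Rad21 left out). The choice gave 40 of the 3134 genes in the table. The assay was enhanced crosslinking and immunoprecipitation (eCLIP), in which ultraviolet light links proteins to bound RNA, RNase trims it, and what runs more slowly than the protein on a gel is sequenced. The HP1 alpha group was 1 library precipitated with the HP1 alpha antibody, and the input group was 1 library made without antibody. Both came from NIH3T3 cells, an established mouse fibroblast line, for which the labels give no treatment or engineered allele, irradiated at 254 nm. With 1 library per group, no difference has a replicate check and no p-value was computed.

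Cells copy their genome once per cycle. The MCM helicase is loaded at origins and opens the duplex, primase with DNA polymerase alpha starts each strand, and polymerases delta and epsilon extend it with the sliding clamp PCNA. Topoisomerases release the twist this creates, and repair pathways remove damaged bases, mispairs and breaks. HP1 alpha itself binds methylated histone H3 in heterochromatin and is known to bind RNA as well, and heterochromatin is a part of the genome that is typically copied late.

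The table lists read counts per gene for genes whose larger count is at least 100, which add up to 513965 counts in HP1 alpha RNA and 830031 in input RNA. These sums cover only the listed genes and do not give the depth. Levels below are CPM, a count as a share of its library's listed counts. A ratio is HP1 alpha over input CPM, with a 95% interval that covers counting error alone and takes no account of PCR copies. A gene was called higher or lower where its ratio passed 2-fold and the interval excluded 1. The table headed its columns MEF rather than NIH3T3. Of 10 fibroblast markers, 7 were listed, with 5528 counts with HP1 alpha and 11224 in input, among them Col1a1, Fn1 and Vim. Thy1, Pdgfra and Fap were not listed, nor were any of the 12 immune, epithelial and endothelial markers.

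Most of the 40 replication and repair transcripts took a smaller share of the HP1 alpha library than of the input, as did most genes in the table. Apex2, a base excision repair endonuclease gene, was the exception in size, with a ratio of 3.07 (2.54 to 3.71). Ratios were below 1 for 32 members and above 1 for 8 (20%), against 30.9% above 1 among all listed genes. The limit of 100 counts for listing acted mostly on 1 side. Of the members, 17 had under 100 HP1 alpha counts and were listed through input alone, as were 1433 of all 3134 listed genes. Under 100 input counts there were 0 members and 16 listed genes. That limit fixed the direction of 5 members and of 523 listed genes. The 40 genes held 5480 counts, or 1.07% of the HP1 alpha library (1.04 to 1.09, exact binomial), and 9723 counts, or 1.17% of the input (1.15 to 1.19). Their summed ratio was 0.910 (0.880 to 0.941), or 0.871 (0.842 to 0.901) without Apex2. The median log2 ratio of the members was -0.30, and that of all listed genes was -0.21. The middle range of members, from the lower to the upper quartile, was -0.46 to -0.049 on the log2 scale, and for all listed genes it was -0.43 to 0.092.

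By the 2-fold rule, 1 member was higher, Apex2, and 1 was lower, Ercc6l. Of all listed genes, 2.36% were called higher and 0.83% lower, so 1 of 40 in either direction is near the background. Without the fold requirement, the interval lay above 1 for 5 members (12.5%) and below 1 for 18 (45%), against 15.4% and 32.6% of all listed genes. The 5 were Apex2, Prim2, Rad18, Msh3 and Pola1. Of the 18, Brca1, Rad54b, Top1, Top3b, Parp3, Prim1 and Ercc6l were listed through input alone, as was Msh3 of the 5. With TMM or DESeq2 scaling, which shifted every log2 ratio by 0.20 or 0.21, the number below 1 was 9 or 7, against 13.7% or 12.4% of all listed genes. Those 5 kept intervals above 1 under either scaling. Both Apex2 and Prim2 were then called higher and no member was called lower, against 4.05% higher and 0.287% lower among all listed genes with TMM and 4.21% and 0.287% with DESeq2 scaling. Intervals above 1 were found for 23.3% of all listed genes with TMM and 23.9% with DESeq2 scaling. At a threshold of 1.5-fold, the higher members were Apex2, Prim2 and Rad18, 3 of 40 against 7.63% of all listed genes. The lower ones were then Ercc6l, Prim1, Top3b, Parp10, Rif1, Parp3 and Mdc1, 7 of 40 against 12.3%.

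**Figure D1:**
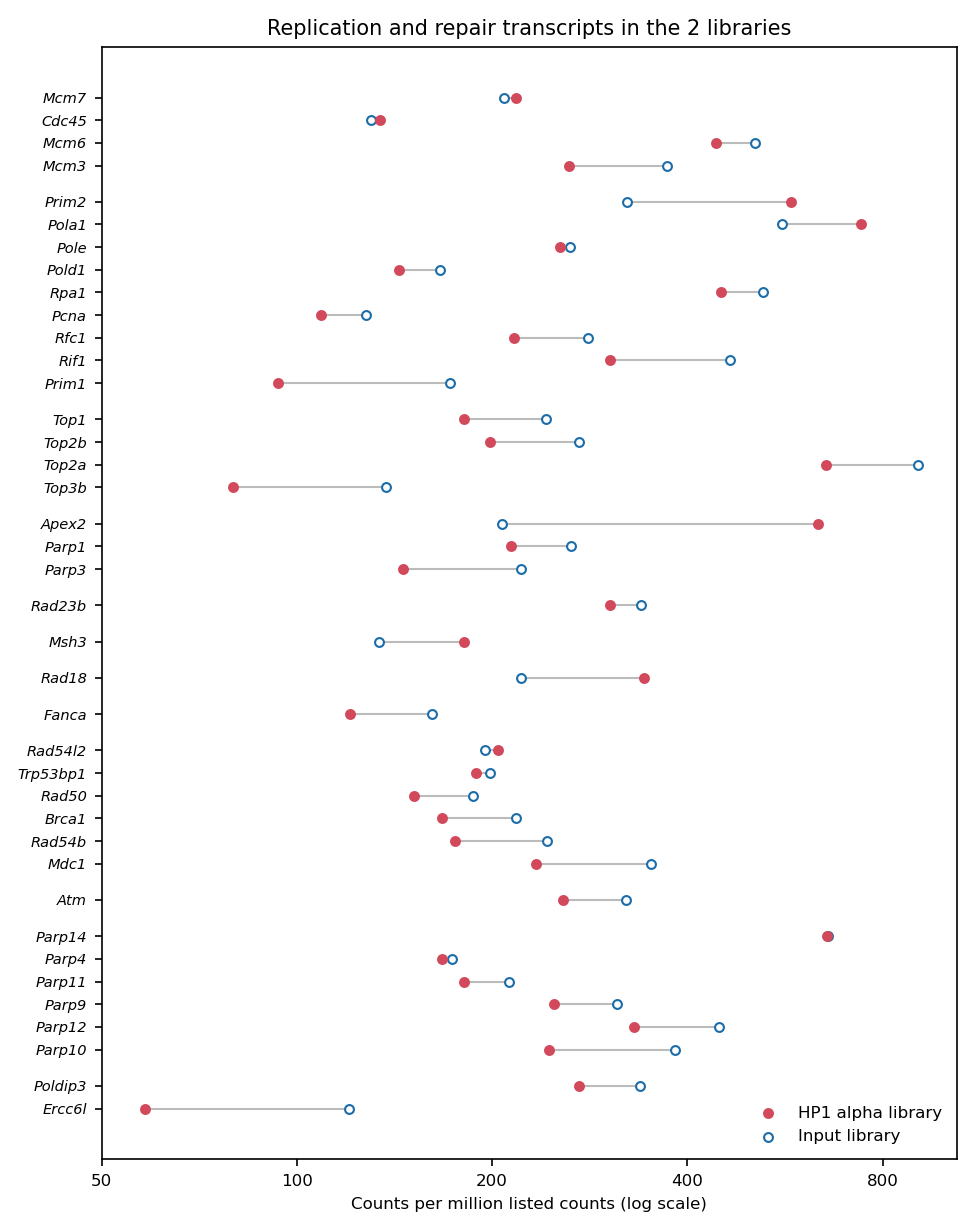
Level of 39 of the 40 members in CPM of listed counts (log axis) in the HP1 alpha library (filled) and the input library (open), 1 library each, grouped by role. The HP1 alpha point lies left of the input point for 31 of them, and Apex2 shows the widest gap in the other direction, 636 against 207 CPM.

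The helicase and origin genes were close to even or lower. Mcm7, a subunit of the MCM ring, had 112 counts with HP1 alpha and 173 in input, or 218 against 208 CPM, a ratio of 1.05 (0.817 to 1.33). Mcm6, another subunit, had 228 HP1 alpha and 422 input counts, for a ratio of 0.873 (0.739 to 1.03). Mcm3 had 135 HP1 alpha and 309 input counts, or 263 against 372 CPM, a ratio of 0.706 (0.572 to 0.866). These 3 genes encode parts of the same ring, and the Mcm7 ratio was 1.48 times that of Mcm3 (1.07 to 2.05). It was 1 of 15 such pairs, picked with the ratios known, and the intervals were not adjusted for their number. Cdc45, which joins the ring to form the active helicase, had 69 HP1 alpha and 108 input counts, for a ratio of 1.03 (0.751 to 1.41). The Cdc45 span overlaps the listed gene Ufd1l, and with under 100 HP1 alpha counts Cdc45 was listed through input alone. The group's median log2 ratio was -0.073 and turned to 0.12 with TMM and 0.14 with DESeq2 scaling. None of the 6 Orc genes that RefSeq annotates, which encode the origin recognition complex, reached the table, and the other MCM ring genes, Mcm2, Mcm4 and Mcm5, were also not listed.

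Each of the 3 listed MCM genes had a promoter window with matches to a list of 3 short sequences. No single 1 of these sequences was found in all 3 windows. E2F factors, which switch on many replication genes before S phase, bind sites such as TTTCCCGC, TTTGGCGC and TTTCGCGC, and these 3 were searched on both strands of RefSeq promoter windows, from 250 bases before to 50 after an annotated start (GRCm38.p6). Of the 27 members with a window, 7 held a match (25.9%), against 3 of 26 other genes of the same pathways (11.5%), 123 of the 2550 listed genes with a window (4.82%) and 2.12% of 27025 genes in the RefSeq table. The 3 windows are shown because they come from subunits of 1 complex, with the matches in capitals on the gene's own strand. In Mcm6, 2 matches overlap. Mcm7 has 2 windows, and its matches lie in the one around a start 228 bases inside the 5′ end of its RefSeq span.
Mcm3 (chr1:20820263-20820562, minus strand): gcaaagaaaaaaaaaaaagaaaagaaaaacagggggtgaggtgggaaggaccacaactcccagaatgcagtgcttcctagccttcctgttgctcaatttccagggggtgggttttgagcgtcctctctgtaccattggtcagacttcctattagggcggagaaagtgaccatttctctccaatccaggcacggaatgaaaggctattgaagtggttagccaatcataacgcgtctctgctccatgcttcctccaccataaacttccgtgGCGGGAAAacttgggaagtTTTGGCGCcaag
Mcm6 (chr1:128359656-128359955, minus strand): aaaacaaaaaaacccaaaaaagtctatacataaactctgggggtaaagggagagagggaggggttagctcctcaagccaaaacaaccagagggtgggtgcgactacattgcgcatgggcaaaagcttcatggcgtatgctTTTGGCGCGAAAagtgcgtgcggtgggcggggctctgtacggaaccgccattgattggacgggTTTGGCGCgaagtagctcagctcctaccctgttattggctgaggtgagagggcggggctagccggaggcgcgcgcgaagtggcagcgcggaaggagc
Mcm7 (chr5:138171834-138172133, minus strand): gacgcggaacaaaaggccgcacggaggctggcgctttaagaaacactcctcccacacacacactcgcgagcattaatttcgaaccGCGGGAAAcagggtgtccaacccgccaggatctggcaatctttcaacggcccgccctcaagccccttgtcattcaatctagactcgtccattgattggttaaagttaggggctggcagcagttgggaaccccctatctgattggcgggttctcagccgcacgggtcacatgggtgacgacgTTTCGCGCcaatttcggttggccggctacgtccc

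The other members with a match were Msh3, Mdc1, Pola1 and Pold1. Across all 7, ratios ran from 0.664 for Mdc1 to 1.35 for Msh3, so genes with these letters stood on both sides of 1. The gene counts do not read promoter activity, and the motifs were chosen with the ratios known.

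Mcm7 spans only 7.5 kb on chromosome 5 (138164583 to 138172111) and hosts the miR-106b cluster, 3 hairpins on its own strand. Relative to the 200 listed genes nearest in span, its ratio was 1.46 (1.14 to 1.86). A mature RNA of each hairpin, from RefSeq, is shown because reads from it would fall within the Mcm7 span, and whether the gene count includes them is not stated. Capitals mark the seed, bases 2 to 8, through which a miRNA pairs with its targets.
mmu-miR-106b-5p: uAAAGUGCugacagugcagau
mmu-miR-93-5p: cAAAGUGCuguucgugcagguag
mmu-miR-25-3p: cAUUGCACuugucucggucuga

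The first and second of these share the seed AAAGUGC, and miR-25 has AUUGCAC. The part of these small RNAs in the Mcm7 count was not tested. The span of Ap4m1, a protein-coding gene that was not listed, also overlaps Mcm7.

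The polymerase and fork genes held the widest split among members of 1 complex. Prim2, the large subunit of primase, had 297 counts with HP1 alpha and 268 in input, or 578 against 323 CPM, a ratio of 1.79 (1.51 to 2.12). Prim1, the catalytic subunit of the same enzyme, had 48 HP1 alpha and 143 input counts, or 93.4 against 172 CPM, a ratio of 0.542 (0.382 to 0.757). The ratio of Prim2 was 3.30 times that of Prim1 (2.26 to 4.87). Their genes differ in span, 216 kb for Prim2 on chromosome 1 (33453808 to 33669808) and 14.8 kb for Prim1 on chromosome 10 (128015215 to 128030030). With span taken into account they stood nearer to each other, at 1.38 (1.17 to 1.64) for Prim2 and 0.721 (0.509 to 1.01) for Prim1. Since every listed gene with 61 or fewer HP1 alpha counts needed at least 100 input counts to be listed, the direction of Prim1 was fixed by the listing limit.

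Pola1, the catalytic subunit of polymerase alpha, had 381 HP1 alpha and 464 input counts, or 741 against 559 CPM, a ratio of 1.33 (1.15 to 1.52). Pole, the catalytic subunit of the leading strand polymerase epsilon, had 131 HP1 alpha and 219 input counts, for a ratio of 0.966 (0.772 to 1.20). Pold1, that of polymerase delta, had 74 HP1 alpha and 138 input counts, for a ratio of 0.866 (0.644 to 1.16). The Pola1 ratio exceeded that of Pole 1.37 times (1.06 to 1.79) and that of Pold1 1.53 times (1.11 to 2.13). Pola1 has the longest span of all members, 328 kb, and relative to genes of like span its ratio was 0.940 (0.819 to 1.08), on the other side of 1. On that scale Pole at 1.15 (0.917 to 1.43) and Pold1 at 1.13 (0.839 to 1.51) stood above Pola1, all with intervals that included 1.

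Factors that work around the polymerases had ratios below 1 before span was taken into account. Rpa1, the large subunit of the protein that coats single-stranded DNA, had 232 HP1 alpha and 435 input counts, for a ratio of 0.861 (0.731 to 1.01). Pcna, the sliding clamp, had 56 HP1 alpha and 106 input counts and 0.853 (0.606 to 1.19), with its direction fixed by the listing limit. Rfc1, the large subunit of the clamp loader, had 111 HP1 alpha and 233 input counts and 0.769 (0.608 to 0.969). Rif1, which sets replication timing and also acts at broken ends, was lower than these, with 156 HP1 alpha and 386 input counts, or 304 against 465 CPM, and a ratio of 0.653 (0.538 to 0.788). It was also 1 of the 2 members whose interval lay below 1 relative to genes of like span, at 0.775 (0.639 to 0.936). On that scale the intervals of Rpa1 at 1.03 (0.873 to 1.21), Pcna at 1.17 (0.829 to 1.63) and Rfc1 at 0.843 (0.666 to 1.06) included 1. The Rfc1 interval also included 1 with TMM (0.697 to 1.11) and DESeq2 scaling (0.703 to 1.12), while that of Rif1 stayed below 1 with both.

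The 4 topoisomerase genes all had intervals below 1, as did 32.6% of all listed genes. Of the 4, Top1 and Top3b had under 100 HP1 alpha counts and were listed through input alone. Top2a, the type II enzyme of dividing cells, had 336 counts with HP1 alpha and 754 in input, or 654 against 908 CPM, a ratio of 0.720 (0.631 to 0.819). Top2b, its relative that is also made in resting cells, had 102 HP1 alpha and 226 input counts, for a ratio of 0.729 (0.571 to 0.925). The Top2a and Top2b ratios differed by a factor of 0.987 (0.751 to 1.30), within counting error. Top1, which nicks 1 strand, had 93 HP1 alpha and 201 input counts and 0.747 (0.578 to 0.960), and Top3b, which also acts on RNA, had 41 HP1 alpha and 114 input counts and 0.581 (0.396 to 0.837). The ratios of all 4 stayed below 1 with TMM scaling, with DESeq2 scaling and relative to genes of like span. The number of the 4 whose interval excluded 1 was 2 (Top2a and Top3b) under either scaling, against 13.7% of all listed genes below 1 with TMM and 12.4% with DESeq2 scaling. It was 0 relative to genes of like span, against 11.8%. Since Top3b had 41 HP1 alpha counts, its direction was fixed by the listing limit.

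**Figure D2:**
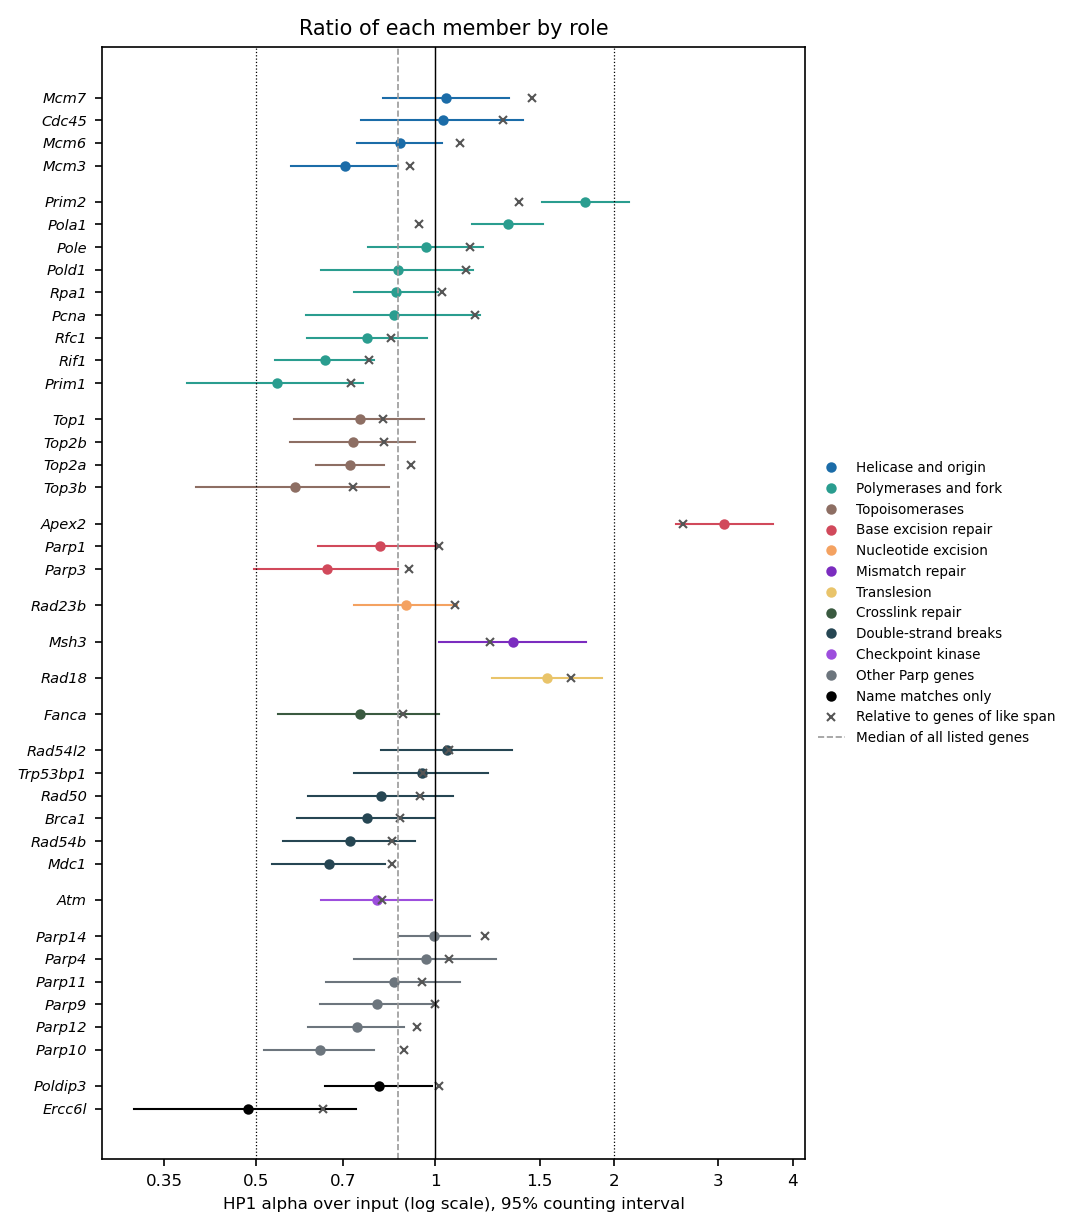
Ratio of HP1 alpha over input for 39 of the 40 members by role (log axis), as points with 95% counting intervals, with crosses for the ratio relative to the 200 listed genes nearest in span, a dashed line at the median of all listed genes and dotted lines at 2-fold. Apex2 alone lies beyond 2-fold on the right and Ercc6l on the left, the 4 topoisomerases lie left of 1, and Prim2 and Prim1 stand on opposite sides.

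Base excision repair held the member with the highest ratio and members below even. Apex2 (ENSMUSG00000025269.12) had 327 counts with HP1 alpha and 172 in input, or 636 against 207 CPM, and its ratio stood above that of 99.9% of the other listed genes. In RefSeq it spans 161 kb on chromosome X (150426974 to 150588206), and relative to genes of like span its ratio was 2.62 (2.17 to 3.16), again past 2-fold. That RefSeq span overlaps 3 other protein-coding genes, Tmem29, Alas2 and Pfkfb1, and the miRNA gene Mir3620, none of which was listed. Their part in the Apex2 count was not tested. Parp1, which binds nicks and builds chains of ADP-ribose, had 110 HP1 alpha and 220 input counts, for a ratio of 0.807 (0.636 to 1.02). Parp3, a relative that responds to breaks, had 75 HP1 alpha and 184 input counts and 0.658 (0.496 to 0.866). Parp3 was listed through input alone. Its interval lay below 1 with TMM (0.569 to 0.992) but included 1 with DESeq2 scaling (0.574 to 1.001). Relative to genes of like span both intervals included 1, at 1.01 (0.800 to 1.28) for Parp1 and 0.904 (0.681 to 1.19) for Parp3. The Apex2 ratio was 3.80 times that of Parp1 (2.80 to 5.16).

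The X chromosome held 3 members, and they were spread over the whole range. Apex2 and Pola1 had intervals above 1 and Ercc6l was the lowest member, while the 103 listed genes on the X had a median log2 ratio of -0.25. Ercc6l matches by name only, since it encodes a translocase of mitotic DNA bridges, not an excision repair factor. It had 30 counts with HP1 alpha and 100 in input, exactly at the listing limit, and a ratio of 0.484 (0.311 to 0.735). With 30 HP1 alpha counts any listed gene would be called lower, so its call followed from the listing limit. Poldip3, named for binding polymerase delta and known for work in mRNA export and translation, had 140 HP1 alpha and 281 input counts and 0.805 (0.652 to 0.989).

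Rad18, the ubiquitin ligase that marks PCNA for bypass of damaged bases, was higher than even. It had 176 counts with HP1 alpha and 184 in input, or 342 against 222 CPM, a ratio of 1.54 (1.25 to 1.91). The ratio was larger relative to genes of like span, at 1.69 (1.37 to 2.09). On that scale its substrate Pcna, which was listed through input alone, stood at 1.17 (0.829 to 1.63).

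Msh3, a mismatch repair gene whose product recognises longer unpaired loops, had 93 HP1 alpha and 111 input counts, or 181 against 134 CPM, a ratio of 1.35 (1.02 to 1.80). Msh3 spans 143 kb on chromosome 13, and relative to genes of like span its interval included 1, at 1.24 (0.929 to 1.64). Rad23b, which helps damage recognition in nucleotide excision repair, had 156 HP1 alpha and 282 input counts and 0.893 (0.730 to 1.09). Fanca, of the crosslink repair core complex, had 62 HP1 alpha and 134 input counts and 0.747 (0.544 to 1.02), and was the only 1 of 11 annotated Fanc genes in the table.

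The double-strand break and checkpoint genes were mostly below even. Brca1, a homologous recombination gene, had 86 HP1 alpha and 181 input counts, for a ratio of 0.767 (0.587 to 0.997). Rad50, of the end-binding MRN complex, had 78 HP1 alpha and 155 input counts and 0.813 (0.611 to 1.07). Mdc1, a scaffold on damaged chromatin, was the lowest of the group, with 120 HP1 alpha and 292 input counts, or 233 against 352 CPM, and 0.664 (0.532 to 0.824). Trp53bp1, which favours end joining and is recruited downstream of Mdc1, had 97 HP1 alpha and 165 input counts and 0.949 (0.731 to 1.23), and its span overlaps the listed genes Map1a and Tubgcp4. Its ratio was 1.43 times that of Mdc1 (1.02 to 2.01) and 1.45 times that of Rif1 (1.05 to 2.01), a factor that acts with it at breaks.

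Atm, the kinase that signals breaks, had 132 HP1 alpha and 267 input counts and 0.798 (0.643 to 0.987). Rad54b, a recombination translocase, had 90 HP1 alpha and 202 input counts and 0.720 (0.555 to 0.927). Rad54l2, a helicase-like gene named for likeness to Rad54, had 105 HP1 alpha and 162 input counts and 1.05 (0.811 to 1.35). Of these 7 genes, 4 had intervals below 1 and none above, against 32.6% and 15.4% of all listed genes. Of the 4, Brca1 and Rad54b had under 100 HP1 alpha counts and were listed through input alone, as were Rad50 and Trp53bp1 of the others. With TMM or DESeq2 scaling Mdc1 alone kept an interval below 1, against 13.7% or 12.4% of all listed genes. Relative to genes of like span no interval of the 7 excluded 1, against 11.8% below and 15.3% above among all genes.

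The 6 other Parp genes are of a family known for attaching ADP-ribose to proteins, and several of them act in the interferon response. None of the 6 had an interval above 1, against 15.4% of all listed genes. Parp14 had 338 counts with HP1 alpha and 547 in input, or 658 against 659 CPM, a ratio of 0.998 (0.869 to 1.14). Relative to genes of like span Parp14 was above 1, at 1.21 (1.06 to 1.39). With DESeq2 scaling its interval lay just above 1 (1.004 to 1.32), and with TMM it included 1 (0.996 to 1.31). Parp10 had 126 HP1 alpha and 318 input counts and 0.640 (0.516 to 0.789), and the Parp14 ratio was 1.56 times as high (1.21 to 2.01).

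Parp12 had 170 HP1 alpha and 372 input counts and 0.738 (0.612 to 0.887). Parp9, whose span overlaps that of its listed partner gene Dtx3l, had 128 HP1 alpha and 259 input counts and 0.798 (0.641 to 0.990). Parp4, a component of vault particles, had 86 HP1 alpha and 144 input counts and 0.964 (0.730 to 1.27), and Parp11 had 93 HP1 alpha and 176 input counts and 0.853 (0.656 to 1.10). Both Parp4 and Parp11 were listed through input alone. Relative to genes of like span the intervals of Parp10, Parp12, Parp9, Parp4 and Parp11 all included 1. With TMM or DESeq2 scaling Parp10 alone of the 6 had an interval below 1, against 13.7% or 12.4% of all listed genes. The 15 pairs of related members were picked with the ratios known, and their intervals were not adjusted for their number or for span. Of these pairs, 10 had an interval of the ratio of ratios that excluded 1, a count given as a description only. In 2 of the 15 (Prim2 with Prim1 and Rad18 with Pcna) the listing limit fixed the direction of 1 gene.

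Span moved with the ratio among the members as it did in the whole table. Spearman's rho between span and log2 ratio was 0.52 over the 40 members, and 0.48 over 39 without Apex2, against 0.61 over 3088 listed genes with a position. These are correlations across genes that share the same 2 libraries, given as descriptions. The 9 members of up to 20 kb had a median log2 ratio of -0.59, against -0.44 for all 694 listed genes of such span. The 11 members between 20 and 50 kb had -0.31, against -0.30 for all 899. The 14 members between 50 and 100 kb had -0.35, against -0.16 for all 715. The 6 members above 100 kb had 0.42, against 0.24 for all 780, and 4 of these 6 had intervals above 1 (Apex2, Prim2, Msh3 and Pola1), as did 360 of the 780 (46.2%).

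Set against the 200 listed genes nearest in span, the members were near even. Their median log2 ratio was -0.066, against 0.0043 for all genes so compared. The interval lay above 1 for 5 members (12.5%) and below 1 for 2 (5%), against 15.3% and 11.8% of all genes. By the 2-fold rule Apex2 was higher and no member was lower, against 1.23% and 0.13%. The 5 were Apex2, Rad18, Mcm7, Prim2 and Parp14, and the 2 were Rif1 and Ercc6l. Thus 3 of the genes with an interval above 1, Apex2, Prim2 and Rad18, held it on both scales. Pola1 and Msh3 did not, and Mcm7 and Parp14 had it relative to span.

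**Figure D3:**
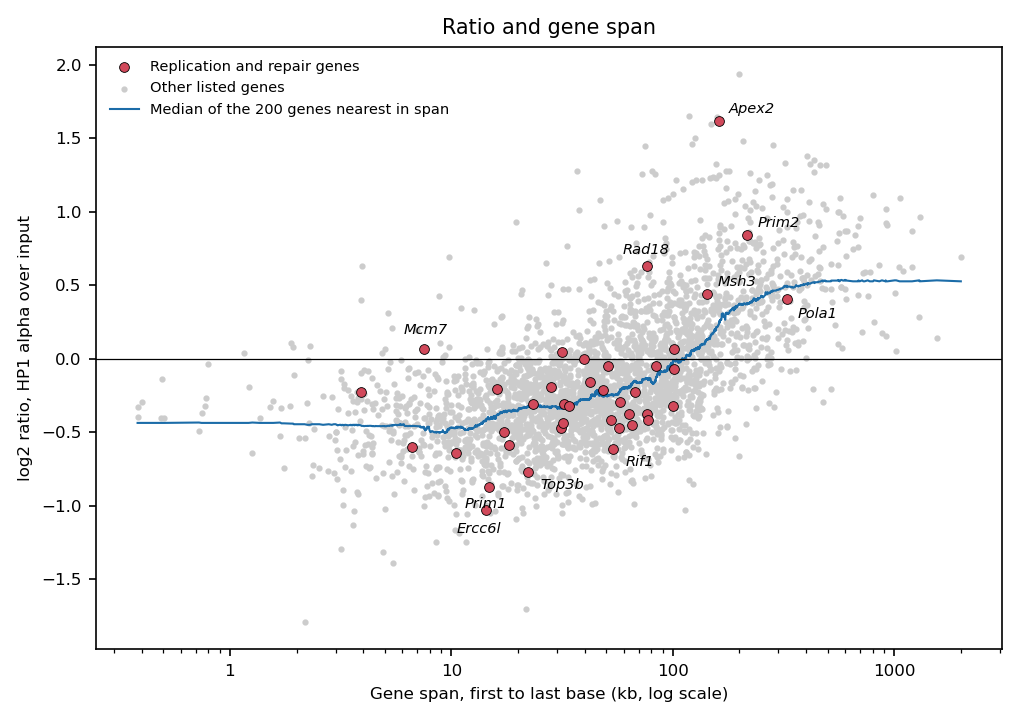
Log2 ratio of HP1 alpha over input against gene span in kb (log axis) for 39 of the 40 members (red) and the other listed genes (grey), with the median of the 200 genes nearest in span as a line. Apex2 and Rad18 lie well above the line at 161 and 76.8 kb, while Pola1 lies close to it at 328 kb.

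Other genes of the same pathways, 117 that the name stems do not take, gave 30 listed genes, and by the 2-fold rule 0 were higher and 0 were lower. Their median log2 ratio was -0.33, or -0.066 relative to genes of like span. Intervals lay above 1 for 3 (10%) and below 1 for 11 (36.7%), near the 15.4% and 32.6% of all listed genes. Of the 30, 22 had under 100 HP1 alpha counts and were listed through input alone, as were 1433 of all 3134 listed genes. For 11 of the 30 the listing limit fixed the direction as lower, so the median and the number below 1 partly follow from that limit. Over all listed genes it fixed the direction of 523. The 3 were Rev1, a translesion polymerase gene, with 101 HP1 alpha and 111 input counts, for a ratio of 1.47 (1.11 to 1.94), Brip1, a helicase gene partner of Brca1, with 1.35 (1.01 to 1.80), and Mnat1, a subunit of the kinase module of TFIIH, with 1.30 (1.03 to 1.62). Rev1 was the only 1 of the 30 with an interval above 1 relative to genes of like span, at 1.62 (1.22 to 2.14), against 15.3% of all genes. Its span overlaps the listed gene Eif5b, and the part of shared reads in its count was not tested.

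Of the 8 genes of this list with the most counts, 4 had intervals below 1 and 1, Mnat1, above 1, against 32.6% and 15.4% of all listed genes. Topbp1, an activator of the Atr kinase, had 173 HP1 alpha and 380 input counts, for a ratio of 0.735 (0.611 to 0.882). Samhd1, which breaks down deoxynucleotides, had 172 HP1 alpha and 379 input counts and 0.733 (0.608 to 0.880). Rev3l, the catalytic subunit of polymerase zeta, had 189 HP1 alpha and 309 input counts and 0.988 (0.820 to 1.19). Mms22l, a recombination factor at stalled forks, had 146 HP1 alpha and 316 input counts and 0.746 (0.609 to 0.911), and it alone of the 30 had an interval below 1 relative to genes of like span, at 0.752 (0.613 to 0.917), against 11.8% of all genes. Timeless, of the fork protection complex, had 0.834 (0.656 to 1.05), and Mtbp, an origin firing factor, had 0.963 (0.749 to 1.23). Mcmbp, an MCM binding protein, had 0.747 (0.577 to 0.961) and was listed through input alone.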

How the data were processed

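One eCLIP library made with an HP1 alpha antibody and one made without antibody (input) were compared. The authors deposited read counts per gene, and per the submitters' processing notes they used STAR 2.6.0c, featureCounts and GRCm38; strand, the feature counted and duplicate removal were not given in the sources used here. The deposited fold column is the raw count ratio multiplied by 1.66 throughout and served only as another scaling. The column headed mock was taken as the input. No unmapped column of sample values was present (0). Counts were scaled by the library's listed total; log2 ratios used a pseudocount of 0.5 counts, and intervals are exact (Clopper-Pearson, 95%). Member intervals spanned a median 1.61-fold from lower to upper bound. Intervals of a ratio of ratios are exact conditional odds ratio intervals (scipy 1.17.1). One member counts in the totals but is not reported singly here. All 40 members exceeded the minimum sum of 20 counts. Positions and sequences came from RefSeq GRCm38.p6, where all 40 matched by symbol and 46 listed genes had no position. RefSeq spans can differ from those used for counting, and overlapping genes can share reads. All listed members may be named; of the other pathway genes, those called and the 8 with the largest summed count, and Rev1 and Brip1 were added after their values were seen. Members, lists, role groups and alternatives were chosen with earlier results of these data known. Alternatives were TMM (edgeR 4.0.16) and DESeq2 1.42.0 factors, other minimums, pseudocounts and thresholds, and genes of like span. The calling rule was tested on simulated counts.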

Additional observations from a re-analysis of the deposited data

How the results depend on the processing

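No paired analysis was possible because there is 1 library on either side. The number of members called higher, 1 as reported, was 2 with TMM, 2 with DESeq2 factors and 3 at 1.5-fold, against 7.63% of all listed genes. The number called lower, 1 as reported, was 7 at 1.5-fold, against 12.3% of all listed genes. It was 0 with TMM, DESeq2 factors, the authors' constant, a minimum of 400 counts, a pseudocount of 5, genes of like span, without the 2 genes that match by name only, and without the 5 members whose direction the listing limit fixes, an alternative added after the data were seen. The members' median log2 ratio of -0.30 became -0.10 with TMM, -0.091 with DESeq2 factors and -0.066 relative to genes of like span. Signs turned for 3 role groups. The helicase and origin median was 0.12 with TMM, 0.14 with DESeq2 factors and 0.26 relative to like span. The base excision median of -0.31 became 1.62 at a minimum of 400 counts, where Apex2 alone was left, and 0.024 relative to like span. The polymerase and fork median of -0.21 became 0.097 at that minimum, with 4 genes left, and 0.042 relative to like span. Of the 40 members, 17 had under 100 HP1 alpha counts, and the widest interval, that of Ercc6l, spanned 2.36-fold.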
